A study of Mus musculus with 6 samples.

Results

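RBR-type ubiquitin ligases are the subject here, with Rnf217 at their head. The 9 members are Rnf217, Rnf14, Rnf19a, Rnf19b, Rnf144a, Rnf144b, Arih1, Arih2 and Rnf31. They were found by symbol in the array annotation, with the brightest single-symbol probeset taken for each gene, and all 9 were measured among 19938 genes. Rnf217 led the choice because its level differed between the vectors in these arrays, so its difference is described without a test, and the other 8 were taken for their protein family. A further 4 measured RBR genes, outside the members, are given for comparison, which makes 13 in all.

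Lineage-negative, Kit-positive, Sca-1-positive cells were sorted from bone marrow of young adult wild-type FVB/nJ mice, a fraction that holds blood stem cells and early multipotent progenitors. The HLX group (3 arrays) received the lentivirus pCAD-IRES-GFP-Hlx, which carries the homeobox transcription factor gene Hlx, and the control group (3 arrays) received pCAD-IRES-GFP without it. Both groups were kept for 2 days in serum-containing medium with stem cell factor, IL-6 and IL-3 of the mouse and with 8 µg/ml polybrene, and both were then sorted for GFP, so every array holds transduced cells in cytokine culture. The labels do not say whether replicates 1 to 3 came from separate mice or cultures, or whether marrow was pooled, so p-values rest on a spread between samples that may be technical.

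Levels are the deposited RMA values on a log2 scale, 1 per probeset and array. The array medians lay between 6.32 and 6.40, and the correlations between arrays, over genes, were 0.980 to 0.987. Kit, a gene the cells were sorted on, was at 9.59, 9.58 and 9.31 in HLX replicates 1 to 3, against 9.20, 9.50 and 9.53 in control replicates 1 to 3, with overlapping groups, and Ly6a, which encodes Sca-1, was not analysed here. Of 6 measured stem and progenitor markers 5 were below 0, and the list's mean log2 level was lower in every HLX array, at 8.53, 8.46 and 8.38, against 8.62, 8.65 and 8.59 in control arrays. Flt3, the receptor of multipotent progenitors, was at 8.81, 8.57 and 8.19 with HLX, against 9.12, 9.21 and 9.29 with control vector, so its groups stood apart (-0.68 ± 0.16, adjusted p from limma 0.901). No other marker of the list had groups that stood apart, so the step in the list's mean rests largely on Flt3. The list's mean and Flt3 separate the same groups as Rnf217, and their part in its values was not tested. The lymphoid markers Cd3e, Cd4, Cd8a, Ms4a1 and Ncr1 averaged 5.56 to 5.74 per HLX array and 5.59 to 5.72 per control array, below the array medians. Hlx, the gene the vector carries, was at 10.75, 9.74 and 10.28 in HLX replicates 1 to 3, against 6.99, 7.29 and 7.62 in control replicates 1 to 3, so the groups matched their labels.

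Ubiquitin reaches its targets through an activating enzyme (E1), a conjugating enzyme (E2) and a ligase (E3). RBR ligases carry a pair of RING domains with another zinc-binding domain between them. The first RING domain binds the loaded E2, and ubiquitin then passes to a cysteine in the other RING domain before it reaches the substrate, so that these enzymes work in part like HECT ligases. In mice Rnf217 is known for ubiquitination of ferroportin, the iron exporter that Slc40a1 encodes. Rnf31 is the catalytic subunit of LUBAC, the complex that builds linear ubiquitin chains in TNF receptor signalling, and Arih1 and Arih2 work together with neddylated cullin-RING ligases.

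The upstream sequences of Rnf217 and Arih2 are shown because these were the members whose HLX arrays all lay above the control arrays. Each is the stretch of 250 bases before the annotated start, 5′ to 3′ on the gene's strand, from RefSeq, build GRCm38.p6, with every CG dinucleotide in capitals. Rnf217 lies on the minus strand at chr10:31609726-31609975, and the Arih2 window, the one of its 2 annotated starts that is richer in CG, on the minus strand at chr9:108649409-108649658.
Rnf217: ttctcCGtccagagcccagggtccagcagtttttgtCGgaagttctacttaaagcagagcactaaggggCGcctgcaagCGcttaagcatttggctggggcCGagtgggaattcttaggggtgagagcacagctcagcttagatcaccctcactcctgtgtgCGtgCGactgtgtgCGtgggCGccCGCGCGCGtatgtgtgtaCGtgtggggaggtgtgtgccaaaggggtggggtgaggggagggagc
Arih2: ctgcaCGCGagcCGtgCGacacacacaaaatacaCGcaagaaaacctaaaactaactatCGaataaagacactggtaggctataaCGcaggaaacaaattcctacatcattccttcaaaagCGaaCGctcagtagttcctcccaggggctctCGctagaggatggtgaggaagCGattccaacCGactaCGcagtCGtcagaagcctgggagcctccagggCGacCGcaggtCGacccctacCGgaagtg
The Rnf217 window holds 14 CG dinucleotides and that of Arih2 holds 18, where the median over 32851 RefSeq promoter windows is 6. Both were searched for TAAT, a core that many homeodomain proteins bind, on both strands, and for the palindrome TAATTA, which contains it. Neither window holds TAAT, which stands in 54.9% of all windows of this length, and TAATTA, found in 4.8% of them, was in 0 of the 14 windows of the 11 RBR genes matched in the table. TAAT was in 5 of those 14, among them the other Arih2 window, and the absence of these letters from a window says nothing about binding by HLX.

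Rnf217 was at a log2 level of 7.91, 7.56 and 7.95 in HLX replicates 1 to 3, against 6.36, 6.33 and 6.44 in control replicates 1 to 3. Every HLX array lay above every control array, and the lowest HLX array exceeded the highest control array by 1.12 log2 units, or 2.17-fold. That gap ranked 2 among all genes, after Hlx, in the contrast by which Rnf217 was chosen. Its mean was 7.80 ± 0.22 with HLX and 6.37 ± 0.06 with control vector (SD, n = 3 each), a log2 difference of 1.43 ± 0.13 (SE), or 2.69-fold. With 1 array left out the difference ran between 1.36 and 1.55, so no single array set its size. The control arrays stayed within 0.11 log2 units of each other and the HLX arrays within 0.39. The control values lay near the medians of their arrays, 6.34, 6.40 and 6.38 in replicates 1 to 3, with replicate 2 below its own. RMA compresses weak signals, and whether the control level of Rnf217 was near background was not tested. The fold and the narrow control range carry that limit. Only 1 probeset carries the symbol Rnf217, so no other probeset could be set beside it.

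**Figure D1:**
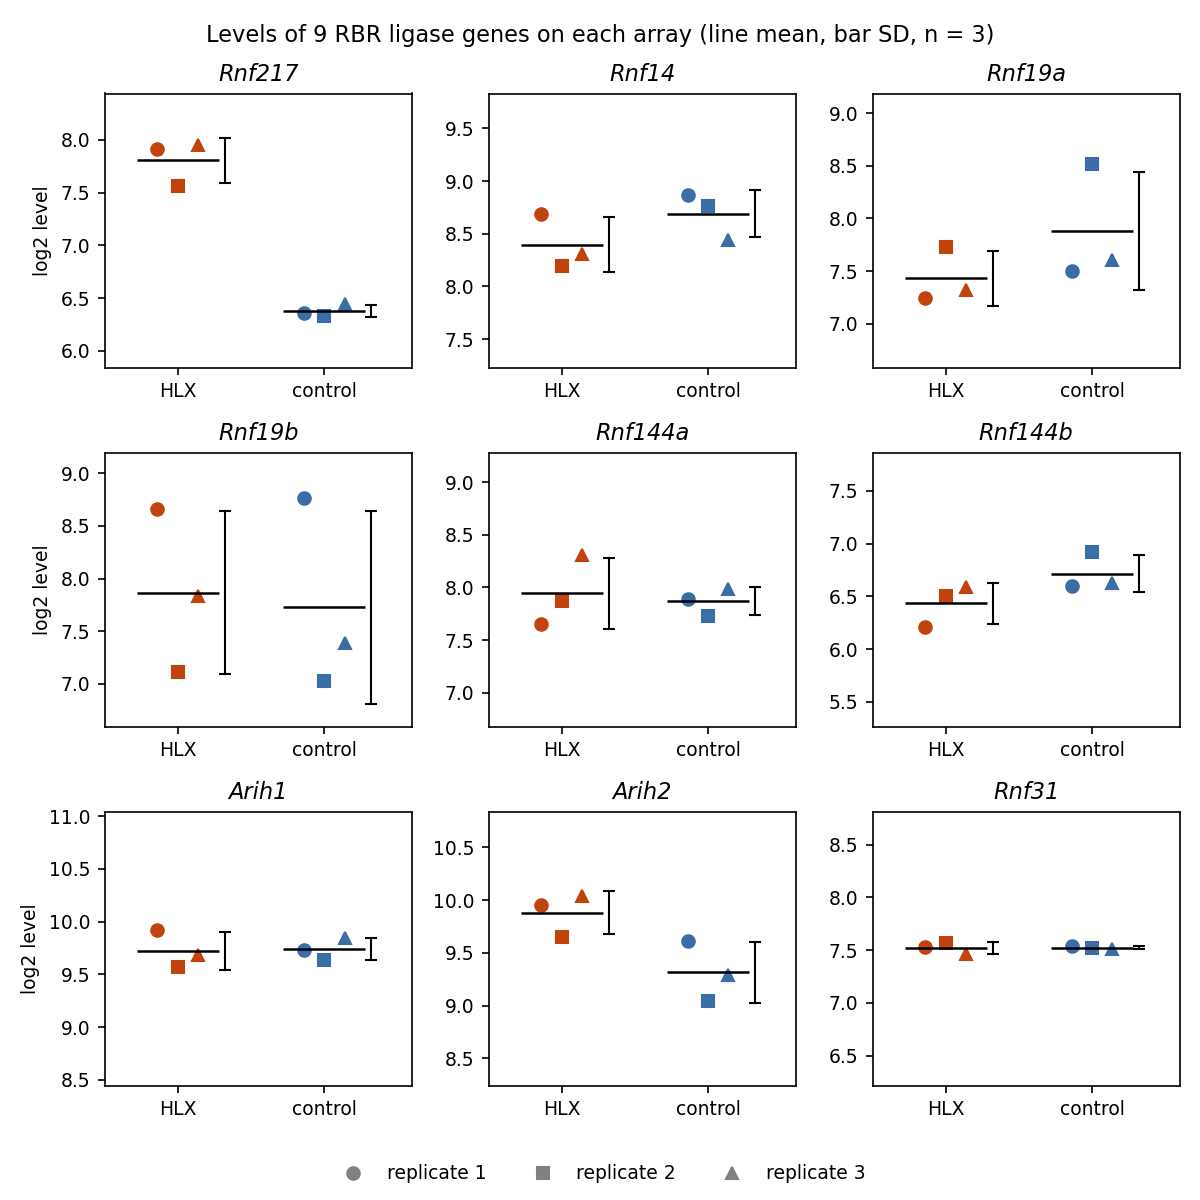
Log2 level (vertical axis, every panel spanning the same number of log2 units) of the 9 members on each array, with the HLX arrays to the left of the control arrays. Points are arrays, shaped by replicate number, lines are means and bars are SD (n = 3). Rnf217 shows 2 separate groups, at 7.56 to 7.95 with HLX and 6.33 to 6.44 in control arrays, and the replicate 1 arrays stand highest for Rnf19b in both groups.

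No other member showed a difference of that size. The groups did not overlap in 2 of the other 8 members, Arih2 and Rnf144b, where 9.19% of all genes had groups that did not overlap, 4.34% higher and 4.85% lower. At an unadjusted p from limma under 0.05 stood 1 of the 8, Arih2, against 4.80% of all genes (2.44% higher and 2.36% lower), and 0 of the 8 passed an adjusted p of 0.05, as did 0.00% of all genes. Of the 8, 3 were above 0 and 5 below, and their median log2 difference was -0.010, where all genes had a median of -0.008 and 47.5% above 0. The largest log2 difference among the 8 was 0.56, for Arih2, and the widest 95% interval was that of Rnf19b, from -1.07 to 1.35. The difference between Rnf217 and the other members was not tested, because Rnf217 was chosen by its value in this contrast.

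**Figure D2:**
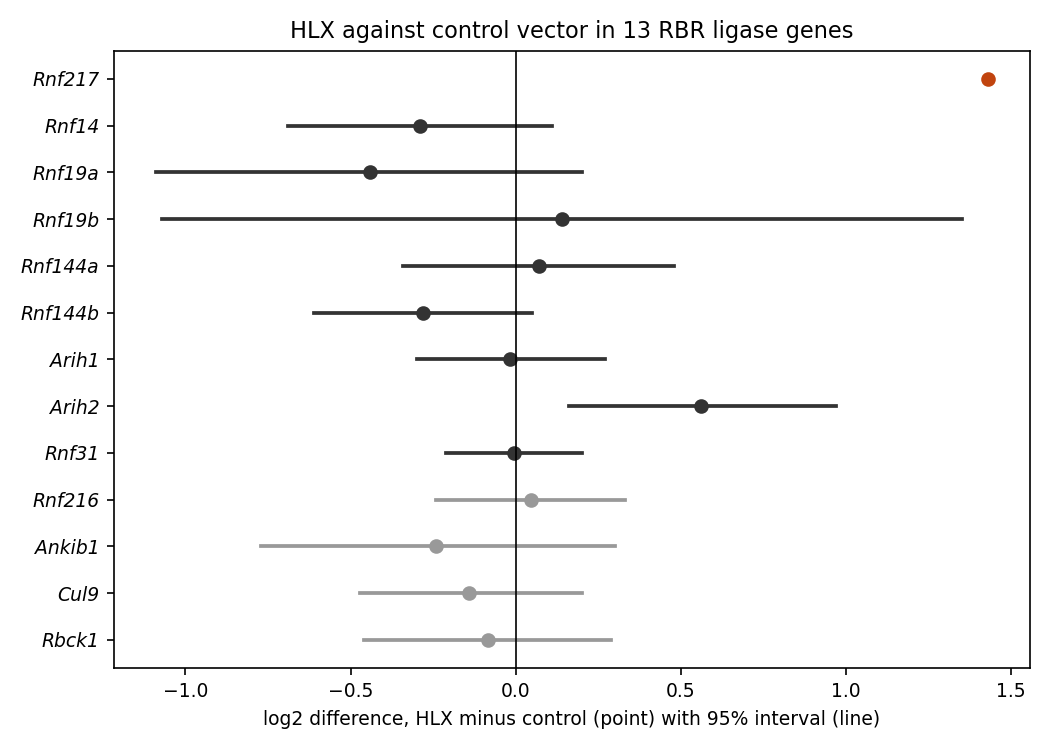
Log2 difference of HLX minus control (horizontal axis, point) for Rnf217 in orange, the other 8 members in black and the 4 other measured RBR genes in grey, with the 95% interval from limma (line) for all but Rnf217, which was chosen by this difference. Rnf217 stands at 1.43, and among the others the interval of Arih2 alone lies wholly above 0.

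Among the cullin-associated members, Arih2 (TRIAD1), known to limit colony growth of myeloid progenitors in culture, was at 9.95, 9.65 and 10.04 in HLX replicates 1 to 3, against 9.61, 9.04 and 9.29 in control replicates 1 to 3. The groups stood apart by 0.033 log2 units, less than the range within either group, and they overlapped after a repeated quantile normalization. Its log2 difference was 0.56 ± 0.17 (SE, n = 3 per group), or 1.48-fold, with an unadjusted p of 0.0128 and an adjusted p from limma of 0.932. A second, dimmer probeset with the symbol Arih2 was at 7.56, 7.26 and 7.50 in HLX replicates, against 7.60, 7.21 and 7.17 in control replicates. There the groups overlapped and the log2 difference was 0.11 ± 0.15 (SE), and with the mean over both probesets that of Arih2 became 0.34. Which transcripts each probeset reads was not analysed here. Arih1, the paralogue that works with most other cullins, was at 9.92, 9.57 and 9.68 with HLX, against 9.73, 9.64 and 9.85 with control vector. Those groups overlapped throughout, with a log2 difference of -0.017 and a 95% interval from -0.30 to 0.27.

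The LUBAC subunit gene Rnf31 (HOIP) was the steadiest member, at 7.53, 7.57 and 7.46 in HLX replicates 1 to 3 and 7.54, 7.52 and 7.51 in control replicates 1 to 3. All 6 arrays lay within 0.12 log2 units and the 95% interval of its difference ran from 0.866-fold to 1.15-fold. Its pooled SD between replicates was 0.271 of the median over all genes. The partner gene Rbck1 (HOIL-1), itself an RBR ligase outside the members, was at 8.25, 7.80 and 8.04 with HLX, against 8.37, 8.00 and 7.97 with control vector, and the groups overlapped (-0.083 ± 0.16). Sharpin, the remaining LUBAC gene, was at 8.34, 8.34 and 8.53 with HLX and 8.35, 8.24 and 8.25 with control vector. Its difference was 0.12 ± 0.099 and was not called.

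Of the paralogues Rnf144a and Rnf144b, the groups stood apart in Rnf144b alone, by very little. Rnf144b, a p53-induced gene in human cells, was at 6.21, 6.50 and 6.59 in HLX replicates 1 to 3, against 6.60, 6.92 and 6.63 in control replicates 1 to 3. The HLX arrays all lay below, but the nearest arrays of the groups were only 0.005 log2 units apart. Its log2 difference was -0.28 ± 0.14 (SE), with an adjusted p from limma of 1. Rnf144a, which in human cells acts on the DNA repair kinase DNA-PKcs, was at 7.65, 7.87 and 8.31 with HLX, against 7.89, 7.73 and 7.99 with control vector. Its HLX arrays lay on both sides of the control arrays, with a log2 difference of 0.071 ± 0.18.

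Rnf19a (Dorfin), a ligase that in human cells ubiquitinates mutant superoxide dismutase, was at 7.25, 7.73 and 7.32 in HLX replicates 1 to 3, against 7.50, 8.52 and 7.61 in control replicates 1 to 3. Control replicate 2 stood well above the other arrays, and the difference of -0.44 ± 0.28 became -0.12 without it. Its paralogue Rnf19b (NKLAM), named for its place in the cytolytic granules of natural killer cells, was at 8.66, 7.11 and 7.83 with HLX, against 8.76, 7.03 and 7.39 with control vector. Here the spread lay between replicates, with replicate 1 highest and replicate 2 lowest in both groups, and the pooled SD was 5.42 times the median over all genes. The log2 difference of Rnf19b, 0.14 ± 0.52 (SE), therefore carries little information on the vectors in the main fit, with a 95% interval from -1.07 to 1.35. That fit leaves out the replicate number, and with the number as a block the difference was 0.14 ± 0.13, not called. Its direction depended on single arrays, being -0.26 without HLX replicate 1, -0.21 without control replicate 2 and -0.028 without control replicate 3.

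Rnf14 (ARA54), a coactivator of the androgen receptor that in human cells also acts on stalled ribosomes, was at 8.69, 8.19 and 8.31 in HLX replicates 1 to 3, against 8.87, 8.76 and 8.44 in control replicates 1 to 3. HLX replicate 1 lay among the control arrays and the other two below them. Its log2 difference was -0.29 ± 0.17, with an adjusted p from limma of 1.

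Outside the members, none of the 4 measured RBR genes had groups that stood apart. Ankib1 was at 8.96, 8.29 and 8.18 with HLX, against 8.42, 8.91 and 8.81 with control vector, with HLX replicate 1 the highest of all arrays (-0.24 ± 0.23). Cul9, which anchors p53 in the cytoplasm of human cells and joins a cullin domain to an RBR module, was at 6.74, 6.26 and 6.64 with HLX, against 6.60, 6.65 and 6.80 with control vector (-0.14 ± 0.14). Rnf216 (TRIAD3), linked to the turnover of Toll-like receptors, was at 8.25, 8.46 and 8.07 with HLX, against 8.19, 8.16 and 8.30 with control vector (0.047 ± 0.12). With Rbck1, 1 of these 4 was above 0, the median was -0.11 and 0 stood at an unadjusted p from limma under 0.05.

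A wider comparison took the 76 measured genes apart from Rnf217 whose symbol is Rnf with a number and at most 1 further letter. RBR genes make up 7 of them, 6 being members, and most of the rest encode RING ligases of other types. They split evenly, 38 above 0 and 38 below (median log2 difference -0.001), and the highest was Rnf145 at 0.52 ± 0.15, against 1.43 for Rnf217. Rnf145, a sterol-regulated ligase of the endoplasmic reticulum, was at 8.18, 8.58 and 8.38 with HLX, against 7.93, 7.62 and 8.04 with control vector. At the other end Rnf122 was at 6.88, 6.19 and 6.58 with HLX, against 7.38, 7.12 and 6.92 with control vector (-0.59 ± 0.20). In both genes the groups did not overlap. The same held in 10 of the 76 (13.2%, against 9.19% of all genes), 4 higher and 6 lower. At an unadjusted p from limma under 0.05 stood 5 of the 76 (6.58%, against 4.80% of all genes), 2 higher and 3 lower. After adjustment 0 were called.

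Genes that work with the RBR ligases were read from lists chosen by function, and none had a member called at an adjusted p of 0.05. Of 19 measured cullin-RING and neddylation genes, the partners of Arih1 and Arih2, 15 were above 0 (78.9%, against 47.5% of all genes), and the median log2 difference was 0.071. The list's mean log2 level overlapped between groups, at 9.81, 9.79 and 9.66 in HLX replicates 1 to 3, against 9.77, 9.55 and 9.64 in control replicates. With 1 array left out the number above 0 ran from 12 to 17, being 12 without control replicate 2. At an unadjusted p from limma under 0.05 stood 2 of the 19 (10.5%, against 4.80% of all genes), both higher. In 3 the groups stood apart (15.8%, against 9.19% of all genes). Cul1, the scaffold of SCF ligases, was at 9.37, 9.61 and 9.59 with HLX, against 9.24, 9.21 and 9.05 with control vector, so its groups stood apart (0.36 ± 0.11). Cul4b was at 8.53, 8.65 and 8.52 with HLX, against 8.46, 8.22 and 8.16 with control vector, also apart (0.29 ± 0.11). Ube2f, the gene of a NEDD8-conjugating enzyme that serves Cul5, was the last of the 3, at 7.59, 7.51 and 7.51 with HLX, against 7.45, 6.91 and 7.49 with control vector (0.25 ± 0.16), and it is named after its values were seen. Cul5, the cullin with which Arih2 is known to pair, was at 8.90, 8.86 and 8.83 with HLX, against 8.83, 8.46 and 8.68 with control vector, where the HLX arrays reached down to the highest control array (0.21 ± 0.12). The adjusted p from limma was 0.932 for Cul1 and 1 for Cul4b and Cul5.

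Of 13 measured genes of E1 and E2 enzymes 7 were above 0 (median 0.001), and 0 stood at an unadjusted p from limma under 0.05. Ube2l3, the E2 that serves most RBR ligases, was at 11.46, 11.34 and 11.31 with HLX, against 11.48, 11.46 and 11.30 with control vector. Those values overlapped, and the 95% interval of the difference was -0.28 to 0.19. The smallest p-values were those of Ube2d1 (-0.31 ± 0.15), Ube2d2a (-0.25 ± 0.14) and Ube2e3 (-0.27 ± 0.18), each with overlapping groups.

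In linear ubiquitin and TNF receptor signalling 8 of 13 measured genes were above 0 (median 0.050). At an unadjusted p from limma under 0.05 stood 1 of them (7.69%, against 4.80% of all genes). That gene was Tnip1, which binds linear chains and restrains NF-kB, at 8.65, 8.44 and 8.56 with HLX, against 8.34, 8.12 and 8.27 with control vector (0.31 ± 0.11, adjusted p from limma 0.951). Its partner Tnfaip3 (A20) lay the other way, at 7.24, 7.24 and 7.23 with HLX and 7.39, 7.48 and 7.37 with control vector. In both genes the groups stood apart, which makes 2 of the 13 (15.4%, against 9.19% of all genes). The difference of Tnfaip3 was -0.18 ± 0.087. Tnfrsf1a, the TNF receptor gene, was at -0.26 ± 0.12 with overlapping groups.

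Iron handling genes, which include the known target of Rnf217, showed no common direction. Of 20 measured, 12 were above 0, the median was 0.026 and 0 stood at an unadjusted p from limma under 0.05. In 2 the groups stood apart (10%, against 9.19% of all genes), Slc25a38 higher and Ncoa4 lower. Slc40a1, which encodes ferroportin, was dim, at 5.50, 5.60 and 5.50 with HLX, against 5.35, 5.57 and 5.79 with control vector, below the median of every array. The 95% interval of its difference was -0.34 to 0.26, and RNA levels do not report on ferroportin protein, which is what the ligase acts on. Hmox1, the haem oxygenase gene, had the largest value in the list, at 6.91, 7.69 and 7.42 with HLX, against 7.12, 7.05 and 6.73 with control vector (0.37 ± 0.21). Slc25a38, a mitochondrial glycine carrier, was at 6.66, 6.65 and 6.96 with HLX, against 6.52, 6.56 and 6.41 with control vector (0.26 ± 0.12), and Ncoa4, the ferritin autophagy receptor, at 10.14, 10.25 and 10.16 with HLX, against 10.27, 10.35 and 10.48 with control vector (-0.18 ± 0.098). Tet1, a DNA demethylase gene known in mice to act upstream of Rnf217, was at 8.34, 7.94 and 7.45 with HLX, against 8.46, 8.06 and 8.10 with control vector, with overlapping groups (-0.30 ± 0.23). The size of the Tet1 difference was unstable, at -0.47 ± 0.29 with the mean over its probesets and -0.068 without HLX replicate 3.

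**Figure D3:**
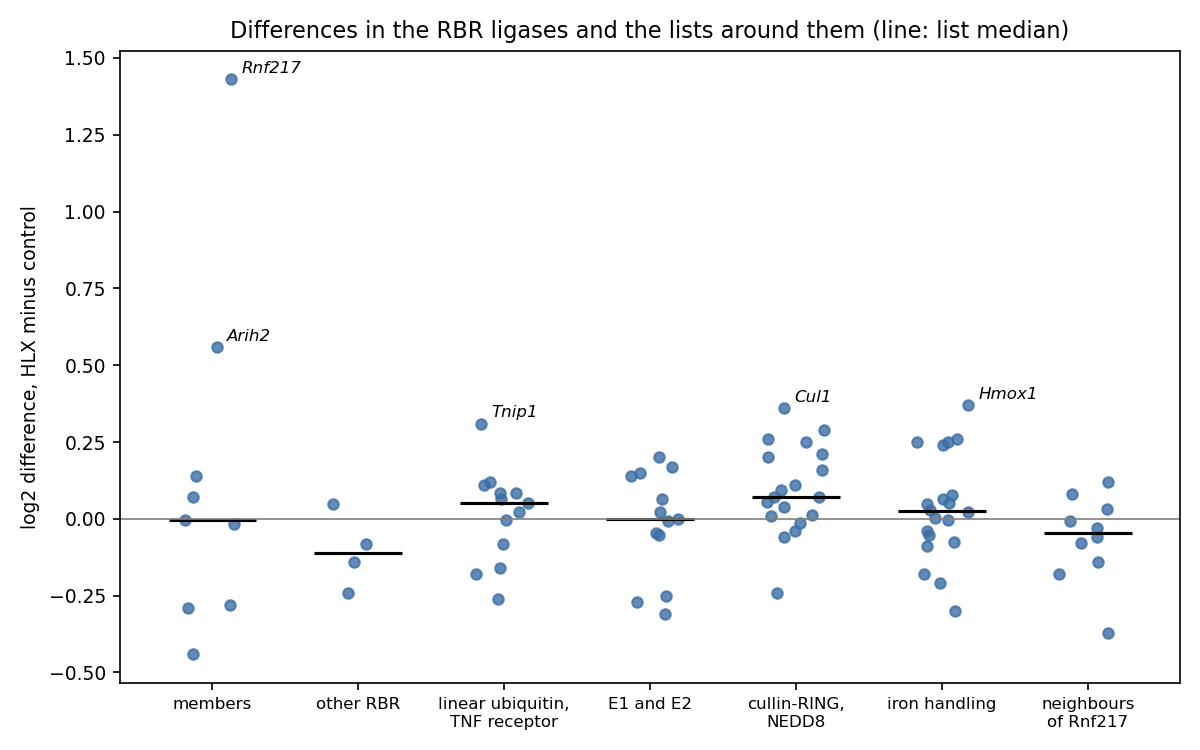
Log2 difference of HLX minus control (vertical axis) for every measured gene of 7 lists, 1 point per gene, with the line at the list's median. Rnf217 stands alone at 1.43, Arih2 follows at 0.56, and all points of the partner and neighbour lists lie between -0.37 and 0.37.

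The genes next to Rnf217 on its chromosome were examined as well, with 5 measured genes on each side in RefSeq order. Of these 10, 3 were above 0 and 7 below, the median log2 difference was -0.045 and 0 stood at an unadjusted p from limma under 0.05 or had groups that did not overlap. The nearest on the one side, Tpd52l1, was at 5.65, 5.68 and 5.58 with HLX, against 5.84, 5.76 and 5.49 with control vector. Nkain2, the nearest on the other, was at 6.68, 6.57 and 6.85 with HLX, against 6.65, 6.61 and 6.93 with control vector. Both pairs of groups overlapped, with differences of -0.060 ± 0.12 and -0.029 ± 0.13, so neither adjacent gene had high values beside those of Rnf217. Tpd52l1 was dim, however, below the median of every array, as were Hey2, Clvs2, Sult3a2 and Sult3a1 among the 10. RMA compresses such weak signals, so these flat values say little. The gaps to Rnf217 ran from 55900 bases for Tpd52l1 to 2241295 bases for Sult3a1.

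Among 2706 genes with an SD of at least 0.3 log2 units over the 6 arrays, the one whose pattern was most like that of Rnf217 was Hlx (Pearson r = 0.990, n = 6 arrays, across arrays and with no test). The next were Slc2a1, a glucose transporter gene (0.987), Pld4, an exonuclease gene of myeloid and dendritic cells (0.980), Trappc5 (0.972) and Hexim1, an inhibitor of the elongation factor P-TEFb (0.961). The lowest r were those of Hmces (-0.985), Sipa1l1 (-0.982) and Rab38 (-0.980). The arrays fall into the 2 vector groups in all of these genes, so such an r mostly reflects the step between groups. Within the HLX arrays, replicate 2 was lowest for both Rnf217 (7.56) and Hlx (9.74), while replicate 3 was highest for Rnf217 (7.95) and replicate 1 for Hlx (10.75).

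**Figure D4:**
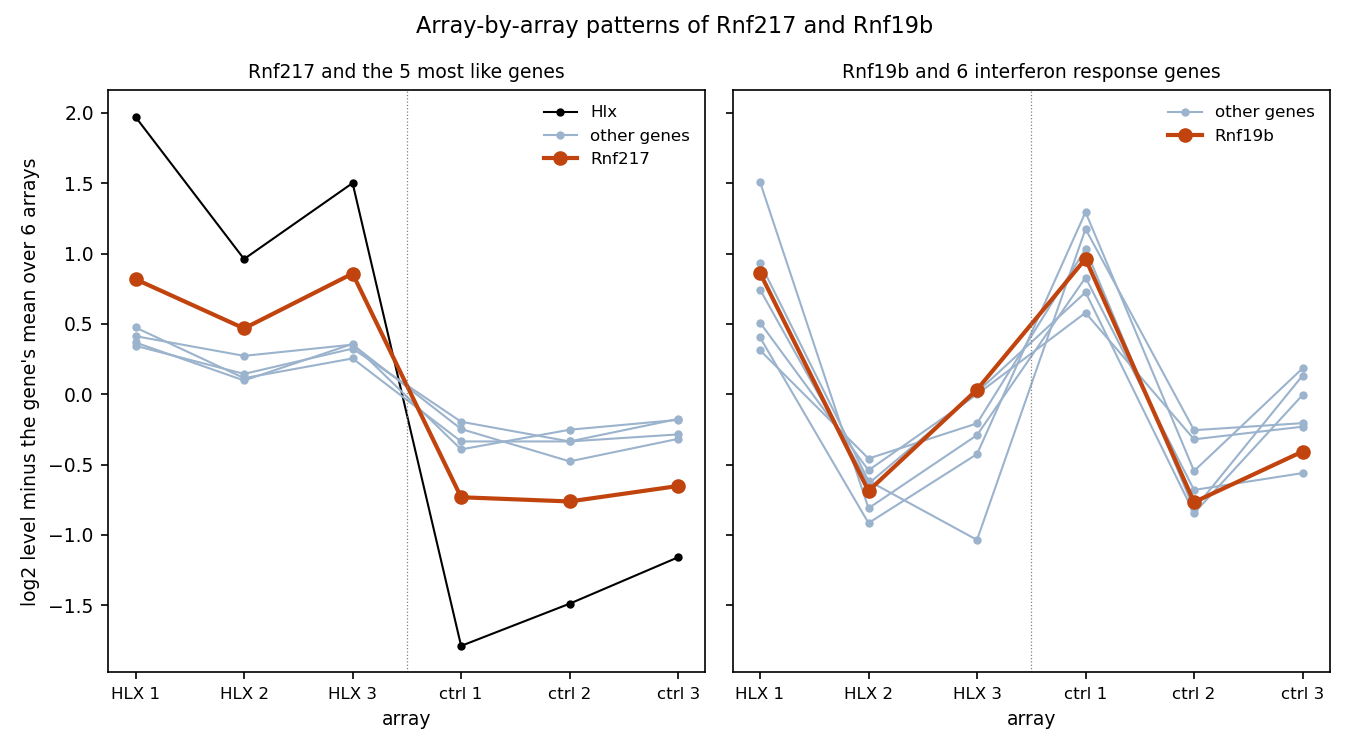
Log2 level minus the gene's own mean over 6 arrays (vertical axis) on each array (horizontal axis, HLX arrays left of control arrays), with lines joining the values of 1 gene. On the left Rnf217 (orange), Hlx (black) and the 4 next most like genes step between the groups, and on the right Rnf19b (orange) and 6 interferon response genes (blue) are high in replicate 1 of both groups.

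Of 6 measured markers of mature myeloid cells 5 were above 0 (83.3%, against 47.5% of all genes). At an unadjusted p from limma under 0.05 stood 4 (66.7%, against 4.80% of all genes). These were Itgam, Lyz2, Cd68 and Csf1r, all higher, and 0 were called after adjustment. The mean log2 level of the list was 6.79, 6.96 and 7.24 in HLX replicates 1 to 3, against 6.43, 6.30 and 6.45 in control replicates 1 to 3, so the groups stood apart. Itgam was at 7.24, 6.91 and 6.72 with HLX, against 6.49, 5.72 and 5.99 with control vector, and Csf1r at 6.49, 7.80 and 8.92 with HLX, against 6.28, 6.48 and 6.37 with control vector. Cd68 was at 9.91, 9.52 and 9.53 with HLX, against 9.17, 8.95 and 9.33 with control vector. The neutrophil marker Ly6g lay the other way with its groups apart, at 4.72, 4.69 and 4.87 with HLX, against 4.88, 4.96 and 4.88 with control vector (-0.15 ± 0.095). Adgre1, a macrophage marker, overlapped, at 4.75 to 5.37 with HLX, against 4.54 to 4.85 with control vector. Ly6g and Adgre1 were both dim, below the median of every array, and the nearest Ly6g arrays of the groups were at 4.87 and 4.88. The values of these 2 genes therefore say little. In bulk samples a change in the share of a cell type and a change in RNA per cell cannot be told apart, and the part of these markers in the Rnf217 values was not tested.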

How the data were processed

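The authors deposited 1 log2 expression value per probeset and array, using RMA (Affymetrix Power Tools), as the submitters' processing notes record and per the labels. RMA corrects background, normalizes between arrays and summarises probes, which compresses weak signals. The log2 scale was read from the values, the notes list a software version that is not printed here, and no genome build is given in the sources used here. RNA (3 ng) from 5000 to 10000 sorted cells was amplified before labelling, per the labels' protocols. Of 35556 probesets 21789 had 1 symbol, 1621 several and 12146 none listed. The brightest probeset by mean over 6 arrays was kept per gene (999 genes had several), and no dim filter was applied. HLX and control vector were compared over all 19938 genes with limma 3.58.1 (lmFit, eBayes, 2-sided, prior df 3.32 beside 4 residual df) in R 4.3.3, with Benjamini-Hochberg adjustment over all genes. SE and 95% intervals are limma's moderated ones. The code was checked on simulated data. RefSeq (GRCm38.p6) gave names, gene order and sequences. The members and lists were chosen with earlier results of these data known. Named genes are the 13 RBR genes reported here, the 3 smallest p of each partner list, Slc40a1, Ube2l3, Sharpin, Tet1, Hlx, the nearest neighbours of Rnf217, the 5 highest and 3 lowest correlations with it, and the extremes of the Rnf symbols and single markers, which were added after their values were seen. With 3 arrays per group an exact permutation test cannot go below p = 0.1, so none is given. Figures used matplotlib 3.10.9.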

Additional observations from a re-analysis of the deposited data

How the results depend on the processing

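The alternatives were 3 further normalizations, a filter keeping probesets above the median level, 2 other variance treatments, array weights, the mean over a gene's probesets, the replicate number as a block, and leaving out each array. Leaving out both arrays numbered 1 was added after seeing Rnf19b. Rnf217 stayed between 1.36 and 1.55 in all 16. Of the other 8 members 0 were called under any of them. Over all genes 1 was called with a trended and robust prior, Hlx (adjusted p from limma 0.0377), and 0 under the other alternatives.

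Counts moved as follows. With the filter 606 genes stood at an unadjusted p from limma under 0.05 and 1118 had groups that did not overlap, of fewer genes tested. With fewer arrays non-overlap is easier, at 3323 to 4805 genes with 1 array left out and 6213 without both arrays numbered 1. At an unadjusted p from limma under 0.05 stood 887 of all genes without a variance prior and 953 with the mean over probesets. They numbered 1202 with array weights, 1205 with the replicate block and 805 to 1269 with 1 array left out, against 958 in the main fit. Members other than Rnf217 at that p numbered 0 without a variance prior and 0 with the mean over probesets. There were 2 with array weights, 2 with the replicate block and 1 to 2 with 1 array left out. The added member was Rnf144b, Rnf19a and Rnf14 in turn. Members other than Rnf217 with non-overlapping groups numbered 1 after quantile normalization and 1 with the mean over probesets, Arih2 being the one lost in both. With 1 array left out they numbered 2 to 3. Those above 0 numbered 5 after median centring and 1 to 4 with 1 array left out. Neighbours of Rnf217 above 0, 3 in the main fit, numbered 5 with the mean over probesets, where their median was 0.005. They numbered 2 to 5 with 1 array left out and 1 with the filter, of fewer tested. Linear ubiquitin and TNF receptor genes above 0 numbered 5 without control replicate 2, against 8 in the main fit. Of the 4 other RBR genes 2 were above 0 without HLX replicate 2 and without control replicate 1, against 1.

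Directions of small differences turned, none of them called, and the cause was not tested. After median centring Arih1 was at 0.005 and Rnf31 at 0.018. With array weights Rnf144a was at -0.026, Arih1 at 0.017 and Rnf31 at 0.008. With the mean over probesets Nkain2 was at 0.017, and without both arrays numbered 1 Tpd52l1 was at 0.005. With 1 array left out the ranges were -0.26 to 0.65 for Rnf19b, -0.11 to 0.22 for Rnf144a, -0.12 to 0.058 for Arih1, -0.030 to 0.028 for Rnf31, -0.054 to 0.14 for Rnf216, -0.23 to 0.005 for Cul9, -0.19 to 0.046 for Rbck1, -0.15 to 0.071 for Slc40a1, -0.16 to 0.012 for Tpd52l1 and -0.10 to 0.070 for Nkain2.

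Same-numbered arrays deviated from their group means with correlations over genes of 0.200, 0.009 and 0.143, and differently numbered arrays with -0.225 to 0.105. HLX replicate 2 correlated best with control replicate 1 (0.043). The main fit did not take the numbers as pairs, and these values do not settle whether they are. With the replicate block 1205 genes stood at an unadjusted p from limma under 0.05, against 958 without it, and 0 were called. The SE of Rnf19b was 0.13 with the block and 0.52 without it, and that of Rnf19a was 0.14 with it and 0.28 without. The number of arrays limits the precision.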

Other observations

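The array pattern of Rnf19b was shared by interferon response genes, a list chosen after the values of Rnf19b were seen, of which 6 of 8 were measured. The mean log2 level of the list was 7.22, 5.82 and 6.16 in HLX replicates 1 to 3, against 7.42, 5.91 and 6.37 in control replicates 1 to 3, so replicate 1 was highest and replicate 2 lowest in both groups, as for Rnf19b. Irf7, the regulator of the interferon response, was at 8.17, 5.85 and 6.37 with HLX, against 7.49, 5.98 and 6.10 with control vector. Oas1a, which encodes an antiviral synthetase, was at 8.96, 7.58 and 8.23 with HLX, against 8.94, 7.37 and 8.21 with control vector. Ifit1, an RNA-binding antiviral gene, was at 7.25, 5.70 and 5.28 with HLX, against 7.49, 6.06 and 6.11 with control vector. In all 3 genes the replicate 1 arrays of both groups stood above the other 4 arrays. Without both arrays numbered 1 the log2 difference of Rnf19b was 0.26 ± 0.27 (SE).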
